A study of Mus musculus with 6 samples.

Results

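The Krüppel-like factors (Klf) are transcription factors that bind GC-rich and CACCC sequences of DNA through zinc fingers at their carboxyl end, and the related Sp factors bind similar sites. Some members mainly recruit acetyltransferases such as p300 and act largely as activators, others recruit the corepressor CtBP or the corepressor Sin3, and several are induced within minutes to hours by serum, stress or hormones. In neural cells, Klf members are known for roles in axon growth, in the maturation of oligodendrocytes and in the balance of quiescence and self-renewal of stem cells.

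The 10 genes described here are Klf2, Klf3, Klf4, Klf5, Klf6, Klf7, Klf9, Klf10, Klf13 and Klf15, which were taken by name from the 22911 genes named on the array. They were chosen with earlier results of these data known, so their counts beside those of all genes are descriptive only. All 10 were among the 14898 genes tested. The remaining 16 genes of the Klf and Sp family on the array served for comparison. RNA was measured in OS3 cells, a line of glial cells from the brain of newborn male C3H/HeN mice that carries SV40 for immortalization. The WT group held OS3 cells with an empty vector, and the IG27 group held OS3 cells transfected with a plasmid that encodes histone H3.3 with the K27M change, a mutation of diffuse midline gliomas. Both lines were cultured for 2 days in the same medium with serum and insulin, and each group had 3 samples on 1 array each. Both lines went through transfection and drug selection, which gave several clones, and the number of clones behind the arrays is not given in the sources used here. The samples of a group carry the label of 1 line, and whether they came from the same clone is not known. The p-values measure the spread between these samples and cannot be taken as the spread between independently made lines. An exact permutation test of 3 against 3 samples cannot go below 0.1, so the tests rest on limma fitted across all genes.

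The median processed signal of an array was 55.4 to 62.9 in WT and 67.1 to 77.6 in IG27, so every IG27 array was brighter at the median than every WT array. On the 5 arrays with complete scanner output, 58.8% to 61.2% of the probes were well above background. IG27 replicate 2 lacked the background flags, so a probe could be well above background on at most 2 IG27 arrays. Of all genes tested, 4546 rose and 5955 fell in IG27 cells, a split of 43.3% higher among the called genes that became 27.6% (3026 higher, 7956 lower) when the median of each array was subtracted in place of its 75th percentile. That scaling moved the median log2 fold change of all genes from -0.07 to -0.31, so changes near these values are given beside the median. The brightest probe of H3f3a, the gene for the histone that the plasmid encodes, gave 6.96, 6.70 and 6.85 in WT and 6.61, 6.52 and 6.61 in IG27 (log2 signal minus the 75th percentile of the array), a difference of -0.26 (adjusted p = 0.0237 by limma), and its other probes differed by 0.17 and -0.20. Whether these probes read the plasmid is not known, so they do not check the labels. The markers of the labelled glial type were detected in part. Of 6 astrocyte markers, Slc1a3 was not well above background in WT, and 2 markers rose and 3 fell. Their summed level was 95.8 to 106 in WT and 55.1 to 63.4 in IG27, on a linear scale where 1 is the 75th percentile of an array. That sum was set mostly by the brighter Gfap probe, which fell by 1.07 on the log2 scale (limma, adjusted p = 6.93e-05). A second Gfap probe, well above background in both lines, rose by 0.19 (limma over probes, adjusted p = 0.0236), so the direction differs between the probes. S100b rose by 4.93 (limma, adjusted p = 1.48e-07), and Slc1a3 was at least 20.6-fold higher. Of 8 genes of the oligodendrocyte lineage, 4 rose and 2 fell, and they summed to 73.8 to 75.9 and 74.8 to 77.4. Mbp was counted as a rise by its brightest probe (0.92), and another probe rose by 0.74. A further Mbp probe, well above background in both lines, fell by 2.30 (limma over probes, adjusted p = 1.1e-06), so the count and the sum depend on the probe. Among markers of other cells, the fibroblast and mural list summed to 149 to 152 in WT and 80.0 to 85.2 in IG27 (4 of 6 tested; 1 higher, 3 lower), the neuronal list to 17.5 to 19.9 and 6.68 to 7.42 (2 of 4; 0 higher, 1 lower), the microglial list to 2.17 to 2.42 and 0.959 to 1.27 (3 of 5; 2 higher, 1 lower) and the endothelial list to 0.172 to 0.194 and 2.60 to 2.67 (2 of 5; 1 higher, 1 lower). Snap25 and Tubb3 of the neuronal list, P2ry12 and Csf1r of the microglial list and Pecam1 of the endothelial list were well above background in both lines, and Kdr of the endothelial list was at least 135-fold higher in IG27. Rbfox3 and Syt1, Cx3cr1 and Ptprc, and Cdh5, Cldn5 and Tek of these lists were not well above background in either line. The part of these shifts in the Klf values was not tested.

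Of the 10 genes, 8 were called higher in IG27 cells and 0 lower at an adjusted p under 0.05. Of all genes tested, 70.5% were called, 30.5% higher and 40.0% lower. When the median of each array was subtracted, 4 were called higher and 1 (Klf15) lower. The 3 genes with at least a 2-fold rise were Klf4, Klf2 and Klf9, and 0 fell that far, against 11.5% of all genes called with a rise and 11.7% with a fall of that size. The median log2 fold change of the 10 genes was 0.41, and that of all genes was -0.07. In 9 of the 10 genes all IG27 arrays lay above all WT arrays, a pattern that 33.4% of all genes tested showed. All IG27 arrays lay below all WT arrays in 0 of the 10 genes and in 42.4% of all genes, so that the groups were separate in 75.7% of all genes. Because the 10 genes were chosen with earlier results known, these shares do not test the family. The other tested Klf and Sp genes, described below, had a median log2 fold change of -0.47, with 2 called higher and 6 lower.

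The 250 bases before the annotated start of transcription are shown for the 3 genes that rose at least 2-fold and for Klf15, which was not called, from RefSeq on the GRCm38.p6 build, in the 5′ to 3′ direction of the gene. Capitals mark the GC box (GGGCGG), the CACCC box (CACCC), the TATA box (TATAAA) and the CCAAT box (CCAAT) on either strand. Matches may overlap, as a pair of GC boxes does in Klf4 and a pair of CCAAT boxes on opposite strands does in Klf9. The windows are chr4:55532476-55532725 (minus strand) for Klf4, chr8:72318812-72319061 (plus strand) for Klf2, chr19:23140976-23141225 (plus strand) for Klf9 and chr6:90462326-90462575 (plus strand) for Klf15.
Klf4: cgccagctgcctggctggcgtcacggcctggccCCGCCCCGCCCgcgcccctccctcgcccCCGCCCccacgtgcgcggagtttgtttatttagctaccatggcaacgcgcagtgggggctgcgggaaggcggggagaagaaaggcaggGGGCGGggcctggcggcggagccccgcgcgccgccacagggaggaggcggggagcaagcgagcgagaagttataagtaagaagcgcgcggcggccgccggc
Klf2: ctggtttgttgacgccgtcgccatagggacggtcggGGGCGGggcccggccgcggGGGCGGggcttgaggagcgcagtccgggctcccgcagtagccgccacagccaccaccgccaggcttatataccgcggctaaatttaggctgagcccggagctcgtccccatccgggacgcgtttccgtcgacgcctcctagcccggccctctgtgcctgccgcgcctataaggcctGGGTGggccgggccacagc
Klf9: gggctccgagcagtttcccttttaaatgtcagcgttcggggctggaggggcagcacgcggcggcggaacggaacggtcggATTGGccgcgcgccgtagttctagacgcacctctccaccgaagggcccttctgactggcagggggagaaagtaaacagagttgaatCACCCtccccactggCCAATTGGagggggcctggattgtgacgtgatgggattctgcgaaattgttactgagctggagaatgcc
Klf15: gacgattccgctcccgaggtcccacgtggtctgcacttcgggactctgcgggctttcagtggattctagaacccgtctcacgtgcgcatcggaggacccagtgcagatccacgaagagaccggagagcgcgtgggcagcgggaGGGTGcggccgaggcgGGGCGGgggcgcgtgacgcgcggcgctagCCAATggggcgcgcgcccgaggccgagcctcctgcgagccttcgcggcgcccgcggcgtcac

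The windows of Klf4 and Klf2 held 4 and 2 GC boxes, that of Klf15 held 1, and that of Klf9 held 0 GC boxes but 3 CCAAT boxes. Promoter sequence was found for 8 of the 10 genes, all but Klf5 and Klf10. A GC box was in 7 of the 8 windows, against 32.7% of 32851 promoter windows of the same length across 27025 genes. A CACCC box, the sequence that the family itself binds, was in 6 of 8 (52.0% of all promoters) and a CCAAT box in 4 of 8 (33.8%). The TATA box in the exact form TATAAA was in 0 of 8 (12.4%), as were the AP-1 site TGAGTCA (4.46%) and the cyclic AMP response element TGACGTCA (1.55%), each searched on both strands. Variants of these sequences were not searched, so the windows may hold other TATA-like elements. The median GC content of the 8 windows was 71.4%, and that of all promoters was 52.4%. The window of Klf15 was as rich in GC (72.0%) as those of Klf4 (74.0%) and Klf2 (71.2%), whereas that of Klf9 was lower (59.6%). These are matches of letters and not measured binding.

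Klf4, a factor used to reprogram somatic cells to pluripotency and an inhibitor of proliferation in many epithelia, had the largest difference of the 10 genes. Its normalized log2 intensity, the log2 signal minus the 75th percentile of the array, was -0.06, -0.08 and -0.06 in WT replicates 1, 2 and 3 and 4.82, 4.65 and 4.71 in IG27 replicates 1, 2 and 3. In WT cells the probe was thus close to the 75th percentile of the array, and no IG27 array came near the WT values. The log2 fold change was 4.79 (standard error 0.06, 95% interval 4.65 to 4.93, 27.7-fold, adjusted p = 7.43e-08 by limma). It stayed between 4.55 and 4.84 in 16 refits with another scaling, filter, probe rule, block or set of arrays. The genes of chromosome 4, where Klf4 lies, had a median of 0.33, which leaves 4.46 relative to the chromosome.

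Klf2, a regulator of quiescence in T cells and endothelium, rose as well. Its normalized log2 intensities were -0.43, -0.33 and -0.36 in WT and 1.16, 1.08 and 1.05 in IG27, with no overlap. The log2 fold change was 1.47 (standard error 0.06, 95% interval 1.33 to 1.61, 2.77-fold, adjusted p = 2.58e-06 by limma). Klf2 lies on chromosome 8, whose genes had a median of -0.67, so that Klf2 stood 2.14 above the genes of its own chromosome. Klf1, the erythroid regulator on the same chromosome, fell by its brighter probe only and is described below.

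Klf6, a factor first studied in wound repair and hepatic stellate cells, had log2 values of 4.02, 3.90 and 3.93 in WT and 4.37, 4.29 and 4.43 in IG27. The groups did not overlap, and the log2 fold change was 0.41 (95% interval 0.27 to 0.56, 1.33-fold, adjusted p = 0.00106 by limma). Klf7, a factor of neurite outgrowth, gave 1.83, 1.67 and 1.74 in WT and 2.08, 2.00 and 1.92 in IG27, a log2 fold change of 0.25 (95% interval 0.08 to 0.41, 1.19-fold, adjusted p = 0.0160 by limma). The closest arrays of Klf7, WT replicate 1 and IG27 replicate 3, lay closer to each other than the lowest and highest WT array did. A second Klf7 probe differed by 0.29, with an adjusted p of 0.0504 in the limma fit over probes. When the median of each array was subtracted, Klf6 differed by 0.17 (limma, adjusted p = 0.0906) and Klf7 by 0.01 (limma, adjusted p = 0.934), so neither was called.

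Klf5, an activator of proliferation in intestinal crypts and smooth muscle, was not called. Its normalized log2 intensities were -1.61, -1.52 and -1.54 in WT and -1.42, -1.48 and -1.31 in IG27. Every IG27 array lay above every WT array, but by little, with a log2 fold change of 0.16 (95% interval 0.01 to 0.30, adjusted p = 0.0615 by limma). It passed the methods' threshold on the unadjusted p, which 72.9% of all genes passed, and it was called in 0 of 16 refits. With the median of each array subtracted it turned to -0.08 (limma, adjusted p = 0.363).

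Klf3, a repressor that works through CtBP, was measured by a pair of probes. The brighter probe gave 3.63, 3.65 and 3.67 in WT and 4.06, 3.94 and 3.89 in IG27, a log2 fold change of 0.31 (95% interval 0.17 to 0.45, 1.24-fold, adjusted p = 0.00355 by limma). The other probe gave 0.77, 0.66 and 0.48 in WT and 1.82, 1.49 and 1.35 in IG27. Neither probe overlapped between the groups, but the second differed by 0.91 (adjusted p = 0.00133 by limma over probes), so the direction was shared and the size was not. The brighter probe differed by 0.07 with the median of each array subtracted (limma, adjusted p = 0.391). Of the CtBP genes that Klf3 can bind, one rose and one fell. Ctbp2 rose from 2.75 ± 0.12 to 3.61 ± 0.06 (SD, n = 3), which is a log2 change of 0.86 (limma, adjusted p = 9.99e-05). Ctbp1, named after its values were seen, fell from 5.68 ± 0.03 to 5.44 ± 0.05 (SD, n = 3), by 0.24 on the log2 scale (limma, adjusted p = 0.00539), and was not called as the mean of its probes (-0.08) or with the slide row as a block (-0.21).

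Klf9, Klf10 and Klf13 belong to the members that bind Sin3. Klf9 is induced by thyroid hormone and glucocorticoids and promotes the maturation of neurons and oligodendrocytes. Its normalized log2 intensities were 1.22, 1.11 and 1.29 in WT and 2.26, 2.20 and 2.25 in IG27, 2 tight and separate groups. The log2 fold change was 1.02 (standard error 0.06, 95% interval 0.88 to 1.17, 2.03-fold, adjusted p = 1.63e-05 by limma), and the lowest value among the refits, 0.79 with the median of each array subtracted, was still called.

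Klf10, an early gene of transforming growth factor beta signaling, gave 1.88, 1.89 and 1.92 in WT and 2.41, 2.35 and 2.22 in IG27. The WT arrays were close together and all lay below the IG27 arrays, with a log2 fold change of 0.43 (95% interval 0.28 to 0.59, 1.35-fold, adjusted p = 0.000961 by limma). With the median of each array subtracted it was 0.19 and still called (limma, adjusted p = 0.0405). The genes of chromosome 15, where Klf10 lies, had a median of 0.30, which leaves 0.14 relative to the chromosome. A second Klf10 probe was not well above background in either line.

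Klf13, a regulator of cardiac genes and of chemokine expression in T cells, gave 1.80, 1.61 and 1.63 in WT and 1.95, 2.04 and 2.24 in IG27. The groups did not overlap, but the IG27 arrays were spread more widely than for the other members, and the log2 fold change of 0.40 had the widest interval among the called members (0.17 to 0.63, 1.32-fold, adjusted p = 0.0094 by limma). It was 0.16 with the median of each array subtracted (limma, adjusted p = 0.239). Sin3b, a scaffold of the corepressor these members bind, fell from 5.38 ± 0.03 to 4.48 ± 0.19 (SD, n = 3), which is a log2 change of -0.89 (limma, adjusted p = 0.000324), whereas the mean of its probes gave -0.40 and was not called (limma, adjusted p = 0.273). The genes of chromosome 8, where Sin3b lies, had a median of -0.67, which leaves -0.23 relative to the chromosome.

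Klf15, a glucocorticoid-induced factor of gluconeogenesis and amino acid catabolism, was the only member with overlapping groups. Its normalized log2 intensities were 0.93, 0.76 and 0.91 in WT and 0.70, 0.77 and 0.87 in IG27. The log2 fold change was -0.08 (95% interval -0.26 to 0.09, adjusted p = 0.335 by limma). It was called lower only when the median of each array was subtracted (-0.32, adjusted p = 0.0221 by limma).

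**Figure D1:**
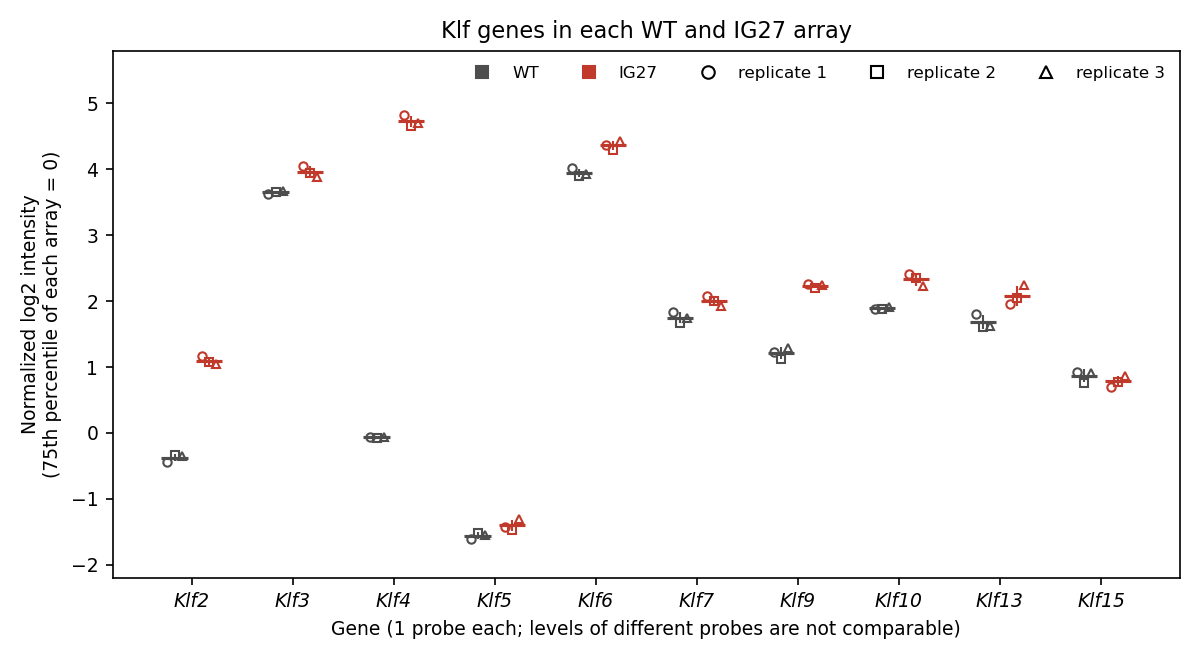
Normalized log2 intensity (y axis, 0 is the 75th percentile of the array) of the 10 Klf genes in each of the 3 WT and 3 IG27 arrays, with the mean as a bar and the SD as a vertical line. Klf4 moved from near 0 to 4.65 and above, Klf2 and Klf9 rose by 1.47 and 1.02, and only Klf15 had overlapping groups; levels of different genes are read by different probes and are not comparable.

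Slide position did not separate the groups fully. The row was inferred from the spot positions in the scanner output, for IG27 replicate 2 from its 285 complete spots. By this reading, WT replicates 1 and 3 lay in the upper row of a slide and all other arrays in the lower row. Within the lower row the comparison is thus of 3 IG27 arrays with WT replicate 2. With the row as a block, Klf4, Klf2 and Klf9 differed by 4.80, 1.43 and 1.12, all 8 called members were still called, and Klf15 turned to 0.03 (limma, adjusted p = 0.815). In the 16 refits, 4 members (Klf2, Klf4, Klf9 and Klf10) were called higher in every one. The other 4 called members lost the call in 1 refit each, the one with the median of each array subtracted. Relative to the median of all genes the members stood at the same distance in either scaling. For Klf3, Klf6, Klf7 and Klf13 that distance was 0.38, 0.48, 0.32 and 0.47 on the log2 scale.

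**Figure D2:**
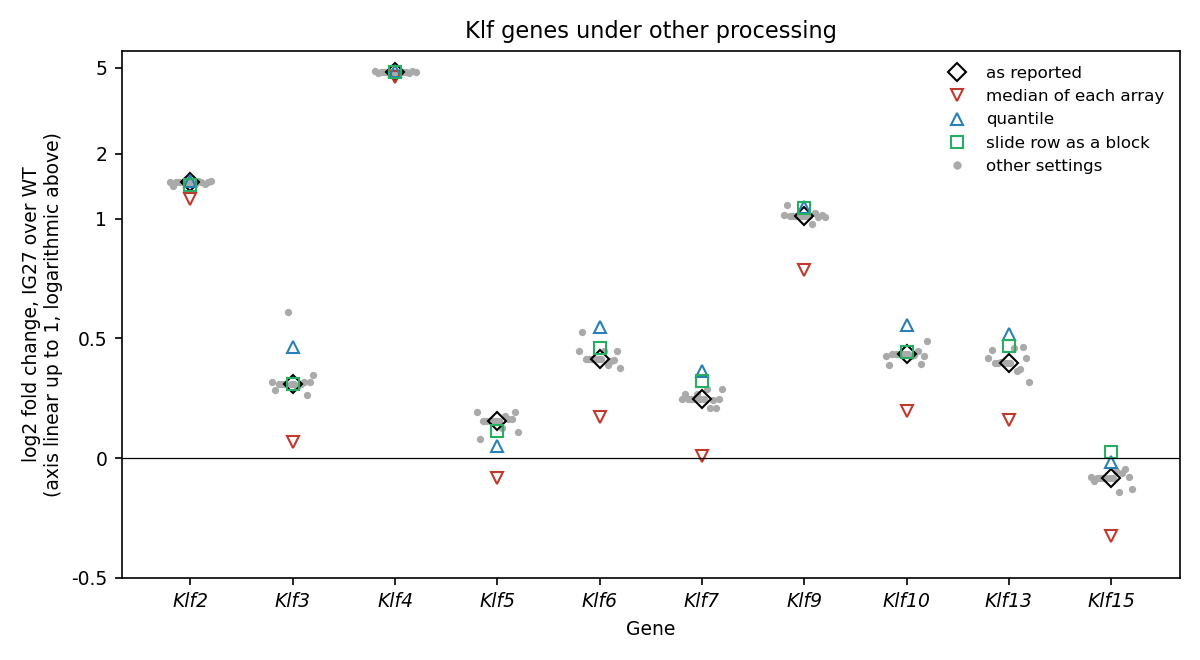
Log2 fold change of IG27 over WT (y axis, linear up to 1 and logarithmic above) for the 10 Klf genes as reported and in refits with another scaling, filter, probe rule, block or set of arrays, 1 mark per setting. Subtracting the median of each array gave the lowest value of every member and turned Klf5 to -0.08, and the slide row as a block turned Klf15 to 0.03.

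The rest of the family moved in both directions. Of the other 16 Klf and Sp genes, 10 were tested, of which 2 rose and 6 fell, with a median log2 fold change of -0.47. Among all genes tested, 30.5% were called higher and 40.0% lower. With quantile scaling Sp1 joined those called higher, with the median of each array subtracted it joined those called lower, and with normexp background correction 5 were lower.

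Among the Sin3-binding members, Klf11, the closest relative of Klf10, rose from -2.76 ± 0.09 to -2.05 ± 0.06 (SD, n = 3), which is a log2 change of 0.71 (limma, adjusted p = 0.000119). Klf16 fell from 2.33 ± 0.06 to 1.71 ± 0.07 (SD, n = 3), by 0.62 on the log2 scale (limma, adjusted p = 0.000174). Klf1 fell by 1.23 on the log2 scale (limma, adjusted p = 0.000289), but its second probe differed by 0.35, and the log2 fold change was -0.44 as the mean of both probes and -0.50 with normexp. Both probes were dim, and the brighter stood at -0.56 relative to the genes of chromosome 8. Klf8, a CtBP-binding member, was not tested, since its brighter probe was well above background on 2 of 3 WT arrays and on 0 IG27 arrays. Klf12, Klf14, Klf17 and Sp5 were not well above background on any complete array, and Sp7 was on 1 WT array.

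Sp8, a factor of limb and forebrain patterning, was not well above background in WT and was at least 31.2-fold higher in IG27, where this bound sets the IG27 mean against the lowest signal well above background on each WT array. Sp8 was tested only because its IG27 signal passed the filter. The bound, 4.96 on the log2 scale, holds for the processed signal, and with normexp background correction the log2 fold change was 3.46. Its close relative Sp9 fell by 0.78 on the log2 scale (limma, adjusted p = 0.000183). The widely expressed Sp1 and Sp2 differed by 0.01 (95% intervals -0.13 to 0.14 and -0.18 to 0.20) and were not called. Sp3 fell by 0.52 on the log2 scale (limma, adjusted p = 0.000641). It lies on chromosome 2, whose median of -0.34 leaves -0.19 relative to the chromosome. Sp4 fell by 0.42 (limma, adjusted p = 0.00641) but was not called with the slide row as a block or with normexp. Sp6 fell by 0.78 (limma, adjusted p = 0.0043) by its brighter probe and by 0.27 as the mean of its probes, which was not called (limma, adjusted p = 0.245).

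**Figure D3:**
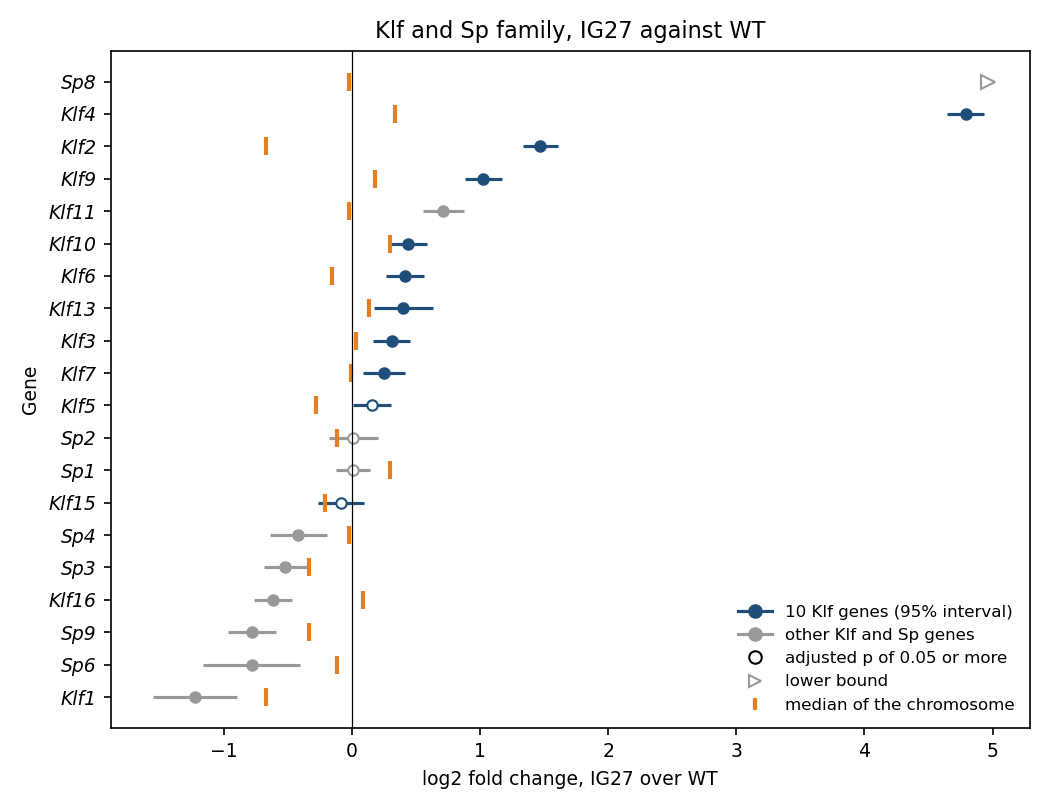
Log2 fold change of IG27 over WT (x axis) with its 95% interval for the 20 tested Klf and Sp genes (y axis), the 10 Klf genes in blue and the rest in grey, with filled marks for genes called, an open triangle for the lower bound of Sp8 and orange ticks for the median of the gene's chromosome. Klf4, Klf2 and Klf9 lay furthest to the right among the 10, Klf2 against a chromosome median of -0.67, while 6 of the other 10 genes lay below 0; with the median of each array subtracted, 4 of the 10 Klf genes were called higher and Klf15 lower.

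Genes that act with Klf factors or regulate them moved both ways. Of 25 partners and regulators, 23 were tested, and 9 rose, 7 fell and 7 were not called, with a median log2 fold change of 0.02. Among all genes tested, 70.5% were called, 30.5% higher and 40.0% lower, so calls in both directions were common on the whole array. With the median of each array subtracted, 5 rose and 9 fell. Mef2c, a MADS factor that activates Klf2 and Klf4 downstream of the kinases MEK5 and ERK5, rose from -1.20 ± 0.10 to 1.87 ± 0.07 (SD, n = 3), which is a log2 change of 3.08 (limma, adjusted p = 3.95e-07). Map2k5, which encodes MEK5, fell from 3.25 ± 0.09 to 2.27 ± 0.08 (SD, n = 3), by 0.98 on the log2 scale (limma, adjusted p = 3.85e-05). The genes of chromosome 9, where Map2k5 lies, had a median of -0.64, which leaves -0.34 relative to the chromosome. Klf2 and Klf4 thus rose beside a higher Mef2c and a lower Map2k5 signal. Hdac2, a deacetylase of the Sin3 complex, rose by 1.03 (limma, adjusted p = 2.74e-05), and Smad3, a mediator of transforming growth factor beta, fell by 1.30 (limma, adjusted p = 5.81e-06). Smad3 also lies on chromosome 9 and stood at -0.66 relative to its genes.

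Genes described as direct targets of Klf factors in other cells also moved in both directions. Of 25 listed, 21 were tested, and 10 rose, 6 fell and 5 were not called, with a median log2 fold change of 0.29. With the median of each array subtracted, 9 of these targets rose and 8 fell. Among all genes tested, 30.5% were called higher and 40.0% lower. Bmp4, a ligand of the BMP pathway, was not well above background in WT and was at least 15.3-fold higher in IG27 by its brighter probe (3.94 on the log2 scale), whereas its other probe, also not well above background in WT, differed by 2.52 and normexp gave 2.28. Slc2a4, the insulin-responsive glucose transporter, rose by 2.41 (limma, adjusted p = 5.9e-07), and Prodh, which degrades proline and is a target of Klf15, rose by 1.73 (limma, adjusted p = 1.45e-06), although Klf15 was not called. S1pr1, a target of Klf2 in T cells, fell by 1.71 (limma, adjusted p = 1.44e-05) while Klf2 rose. Tagln, a smooth muscle gene that Klf4 represses, fell by 1.26 (limma, adjusted p = 3.22e-06). It lies on chromosome 9, whose median of -0.64 leaves -0.62 relative to the chromosome. Nanog, a pluripotency factor, fell by 1.84 (limma, adjusted p = 3.08e-05) by a dim probe, and near-identical copies of Nanog in the genome may share this probe. Cdkn1a, the cell cycle inhibitor that Klf4 activates, was chosen after its values were seen. Its brighter probe, well above background in both lines, rose by 0.69 (limma, adjusted p = 3.23e-05). A much dimmer second probe, well above background on all 3 WT arrays but on 0 complete IG27 arrays, was lower in IG27, so the direction differs between the probes.

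Several Klf members are themselves early genes of serum and stress, and other genes of that response were listed beside them. All 16 early response genes listed were tested and rose, with a median log2 fold change of 1.80 (1.75 with 2 genes at their lower bounds), and 15 rose with the median of each array subtracted. Among all genes tested, 30.5% were called higher. Their summed level was 194 to 201 in WT and 542 to 583 in IG27. Egr3 was not well above background in WT and was at least 234-fold higher in IG27 (7.87 on the log2 scale), whereas normexp gave a log2 fold change of 5.48. Zfp36, which promotes decay of AU-rich mRNAs, rose 64.0-fold (limma, adjusted p = 4.04e-07; log2 fold change 4.95 with normexp) and Egr2, a zinc finger factor of myelinating glia, rose by 4.78 on the log2 scale (limma, adjusted p = 1.29e-07). Fosb, a subunit of AP-1 named after its values were seen, rose by 4.68 (limma, adjusted p = 1.23e-06). The part of this response in the rise of the Klf genes was not tested.

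**Figure D4:**
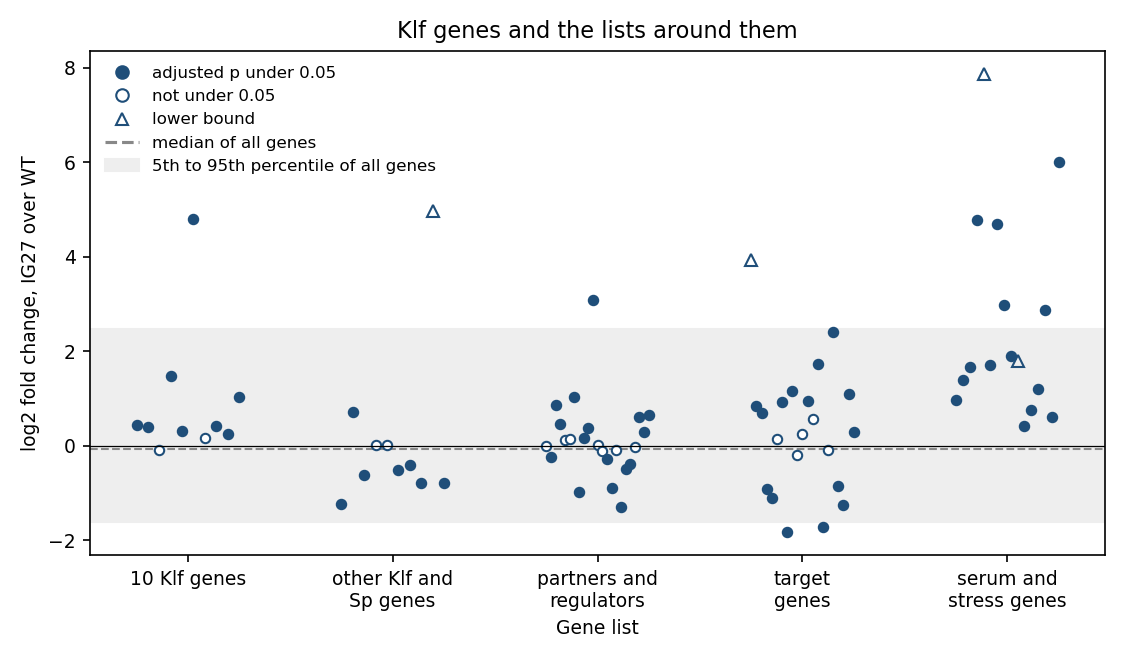
Log2 fold change of IG27 over WT (y axis) of each tested gene (1 mark) in the 10 Klf genes and in 4 lists around them (x axis), with filled circles for genes called, open circles for genes not called and triangles for lower bounds, over the 5th to 95th percentile of all genes tested (grey, -1.61 to 2.46). Among the 10 Klf genes only Klf4 lay outside the grey band, and the serum and stress genes all lay above 0 (15 of 16 called with the median of each array subtracted).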

How the data were processed

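Cy3-labeled RNA of 3 WT and 3 IG27 samples went onto Agilent mouse arrays, 1 color and 1 sample per array. The authors scanned the arrays with Feature Extraction (version 10.7.3.1 per the file headers, 9.1 in the submitters' processing notes), and the deposited processed signal is a spot intensity on a linear scale, not scaled between arrays. Replicates were not pooled. The scanner output of IG27 replicate 2 held 285 complete spots, so its values were taken from the deposited value table, which holds the same intensity per probe. For the other arrays, all 56305 single-spot probes equaled a table column (relative tolerance 1e-04), with the columns of WT replicates 2 and 3 exchanged. The scanner labels were followed.

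The log2 of this deposited signal was reduced by its 75th percentile, taken per array over 56605 probes. Spots flagged as outliers were left out on the 5 complete arrays, and IG27 replicate 2 had no such flags. Probes were named through RefSeq accessions with the GRCm38.p6 table (32994 probes, 22911 genes), and the brightest probe stood for a gene. A gene was tested if, in either group, all complete arrays had its probe well above background. Genes given with a lower bound passed this filter through IG27 alone. They count as called higher by measured WT signals that were not well above background, so no p-value is given for them. The number of arrays limits the precision.

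Groups were compared with limma (version 3.58.1, R 4.3.3; lmFit and eBayes, two-sided) on all 6 arrays, with Benjamini-Hochberg adjustment over all genes tested and a threshold of 0.05. The fit was also run on simulated data, as a check of the code that says nothing about the scaling or the calls here. The text names all 10 members, every tested gene of the rest of the family, and in each other list the 3 largest rises and falls among called genes without overlap. The members and lists were chosen with earlier results of these data known. Alternatives were the scaling, background correction, filter, outlier spots, probe rule, variance model, blocks and each array left out. Srf and Tgfbr1 are in 2 lists each.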

Additional observations from a re-analysis of the deposited data

How the results depend on the processing

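Of the 38 genes named by the rule or after their values were seen, 25 kept their direction and call in every alternative run. The counts moved by more than 1.5 times mainly when the median of each array was subtracted, where 4 Klf members were called higher and 1 lower, 5 partners were called higher and 3026 of all genes were called higher. With the filter that asks for all complete arrays of both groups, 1 of the other Klf and Sp genes was called higher, because Sp8 was no longer tested. Subtracting the median of each array moved every gene down by construction, with shifts from -0.267 to -0.214 on the log2 scale, which turned Klf5 to -0.0846, Sp1 to -0.23 and Sp2 to -0.23. The mean of the probes turned Sp2 to -0.077 and Cdkn1a to -0.88 (its second probe was not well above background in IG27), and the slide row as a block turned Klf15 to 0.0267. Leaving out 1 array at a time, Sp1 ran from -0.0171 to 0.0486, below 0 without WT replicate 1 or 2, and Sp2 from -0.0449 to 0.0688, below 0 without WT replicate 2 or IG27 replicate 1. The cause of the turns with the slide row or with 1 array left out was not tested. With normexp, which adds an offset of 50 to every signal, the genes not well above background in WT differed less (Sp8 3.46, Bmp4 2.28, Egr3 5.48).

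The replicate numbers did not pair the samples (correlations of same-numbered deviations 0.01, 0.04 and 0.08), and the fit with the replicate block called 8 Klf members and 10309 genes, against 10501 without it. No array left out changed the call of a Klf member. Normexp correction used the median signals of the 5 complete arrays. Using only those 5 arrays is the same fit as leaving out IG27 replicate 2.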
